A study of Mus musculus with 106 samples.

Results

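Thermosensitive TRP channels were read across this series as 10 genes chosen by symbol, namely Trpv1, Trpv2, Trpv3, Trpv4, Trpm2, Trpm3, Trpm4, Trpm7, Trpm8 and Trpa1. The rule of choice used no measured value, although earlier results of these data were known when it was made. All 10 were listed in each of the 4 deposited tables of gene counts, which share 19168 genes by symbol. Messenger RNA was measured by bulk sequencing in tissues of wild-type male C57BL/6J mice, with no transgene or deletion in any group. Mice were kept at 10 °C, reached in steps of falling temperature, at 34 °C, or at 22 °C, which served as room temperature. Each of 11 tissues was compared between 10 °C and 22 °C, and each of 5 tissues between 34 °C and 22 °C, always against the 22 °C libraries of the same experiment. The tissues were interscapular brown adipose tissue (iBAT), inguinal subcutaneous adipose tissue (ingSAT), perigonadal visceral adipose tissue (pgVAT), ileum, liver, spleen, brain, hypothalamus, bone marrow, spinal cord and quadriceps muscle. The labels give an age of 11 weeks for the tissues of the 10 °C experiment other than quadriceps, and of 12 weeks for quadriceps and for the 34 °C experiment. Groups held 3 libraries, mostly pools of 2 mice, except 6 single mice in bone marrow and 5 in spinal cord. The study's overview of its design gives single animals for 3 iBAT libraries at 22 °C and 2 at 34 °C of the warm experiment, whereas its methods give pools. The mice of the 10 °C and 34 °C experiments came from different suppliers, so a difference between the experiments cannot be told apart from the source of the animals.

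TRP channels are cation channels of the cell membrane with 6 membrane-spanning segments, and many open or close with temperature. Trpv1 is the capsaicin receptor and opens with noxious heat, Trpv2 responds to stronger heat and is known in macrophages, and Trpv3 and Trpv4 respond to warmth, Trpv3 chiefly in keratinocytes and Trpv4 also to cell swelling. Trpm2 opens with ADP-ribose, oxidants and warmth and is known in immune cells and in warm-sensing neurons of the preoptic area. Trpm3 takes part in heat sensing and is opened by pregnenolone sulfate. Trpm4 passes monovalent cations when intracellular calcium rises, and Trpm7 joins a channel for divalent cations to a kinase. Trpm8 is the menthol and cold receptor, and Trpa1 is opened by irritants and has been linked to cold. Trpv1, Trpm8 and Trpa1 are best known in the sensory neurons of the dorsal root ganglia, a tissue that the study did not sample.

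Libraries held from 4262403 to 25964912 counts in the table of 8 tissues, from 29545458 to 62880248 in the table of quadriceps and the 34 °C experiment, from 15591374 to 22139577 in bone marrow and from 21953207 to 29029283 in spinal cord. The defining markers of the labelled tissues were present in every group, for example 63871 to 91376 CPM summed over 6 liver markers in the liver libraries of the 10 °C experiment, where CPM is the count scaled to a library total of 1000000. A few libraries stood apart. Replicate 2 of the 22 °C brain libraries held 50014 CPM of the 6 liver markers, against 788 and 1176 CPM in the other brain libraries. It was left out of the main comparisons, and the study's own group means omit the same library. The pgVAT libraries differed in 7 epididymis markers, which summed to 668, 888 and 2623 CPM at 22 °C and to 21998, 3.42 and 23860 CPM in replicates 1, 2 and 3 at 10 °C. Replicate 1 of the 22 °C spinal cord libraries held the most counts of 10 libraries for 9 of 12 sensory neuron markers. Where a result rests on these libraries, it is also given without them. In bulk tissue, fewer cells of a type cannot be told apart from less RNA per cell.

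On the GRCm38 assembly (GENCODE annotation) Trpv1 lay on the plus strand of chromosome 11 from 73234292 to 73261242, directly followed by Trpv3 from 73267388 to 73300363, and Trpv2 lay on the same strand from 62574486 to 62600515. The other members were on different chromosomes or far apart: Trpv4 on chromosome 5 from 114622152 to 114658421, Trpm2 on chromosome 10 from 77907722 to 77970563, Trpm4 on chromosome 7 from 45302632 to 45333780, and Trpm7 on chromosome 2 from 126791565 to 126876230. Trpm3 covered chromosome 19 from 22139046 to 22995410. Trpa1 and Trpm8 shared chromosome 1, from 14872648 to 14918862 on the minus strand and from 88277661 to 88389293 on the plus strand. No member shared exon bases with another gene listed in the count tables.

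Several of these channels could hardly be detected in the tissues sampled. A member was taken as at the floor where no library of a tissue held more than 3 counts. By this measure Trpm8 was at the floor in 9 of the 15 sets of libraries, a set being 1 tissue in 1 experiment, and Trpa1 in 7, Trpv1 in 3, Trpm3 in 2 and Trpv3 in 1. The remaining members, Trpv2, Trpv4, Trpm2, Trpm4 and Trpm7, were above it in every set. Trpm8, the cold receptor, had no read at all in 60 of 106 libraries, and Trpa1 had none in 47. In quadriceps 12 of 12 libraries held no read of either gene, which allows up to 0.00503 CPM when 3 counts are set over the 12 libraries together. Bone marrow held no Trpm8 read in 12 libraries, which allows up to 0.0136 CPM. These limits cover counting error only. The largest Trpm8 level at 22 °C among tissues with 3 libraries of even depth was in hypothalamus, at 0.654, 0.707 and 0.823 CPM (10 to 15 counts per library). In pgVAT the 22 °C values were 0.168, 0.263 and 1.88 CPM, and the last of these was 8 counts in the smallest library.

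Trpv1, the heat and capsaicin receptor of sensory neurons, had its highest levels in white and brown fat. At 22 °C it reached 9.08, 12.8 and 14.5 CPM in ingSAT, 4.73, 5.63 and 6.10 CPM in pgVAT and 1.81, 2.25 and 2.41 CPM in iBAT. The hypothalamus followed at 0.823, 0.848 and 0.850 CPM, and these 4 tissues did not overlap with one another. Ileum, liver, brain and spleen came next with means of 0.23, 0.10, 0.052 and 0.046 CPM, each overlapping with its neighbour in that order. Per kilobase of exon, the ingSAT mean of Trpv1 was 3.29 CPM per kb, close to Trpv4 (3.42) and below Trpv2 (4.33) and Trpm7 (16.1) in the same libraries. The 12 sensory neuron markers summed to 3.55 to 8.20 CPM in the 22 °C libraries of ingSAT, and Mrgprd was at 0 there. Dorsal root ganglia were not sampled, so these sums have no reference tissue. The 6 smooth muscle markers summed to 127 to 252 CPM in the same libraries. Which cells of the fat held Trpv1 was not tested.

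**Figure D1:**
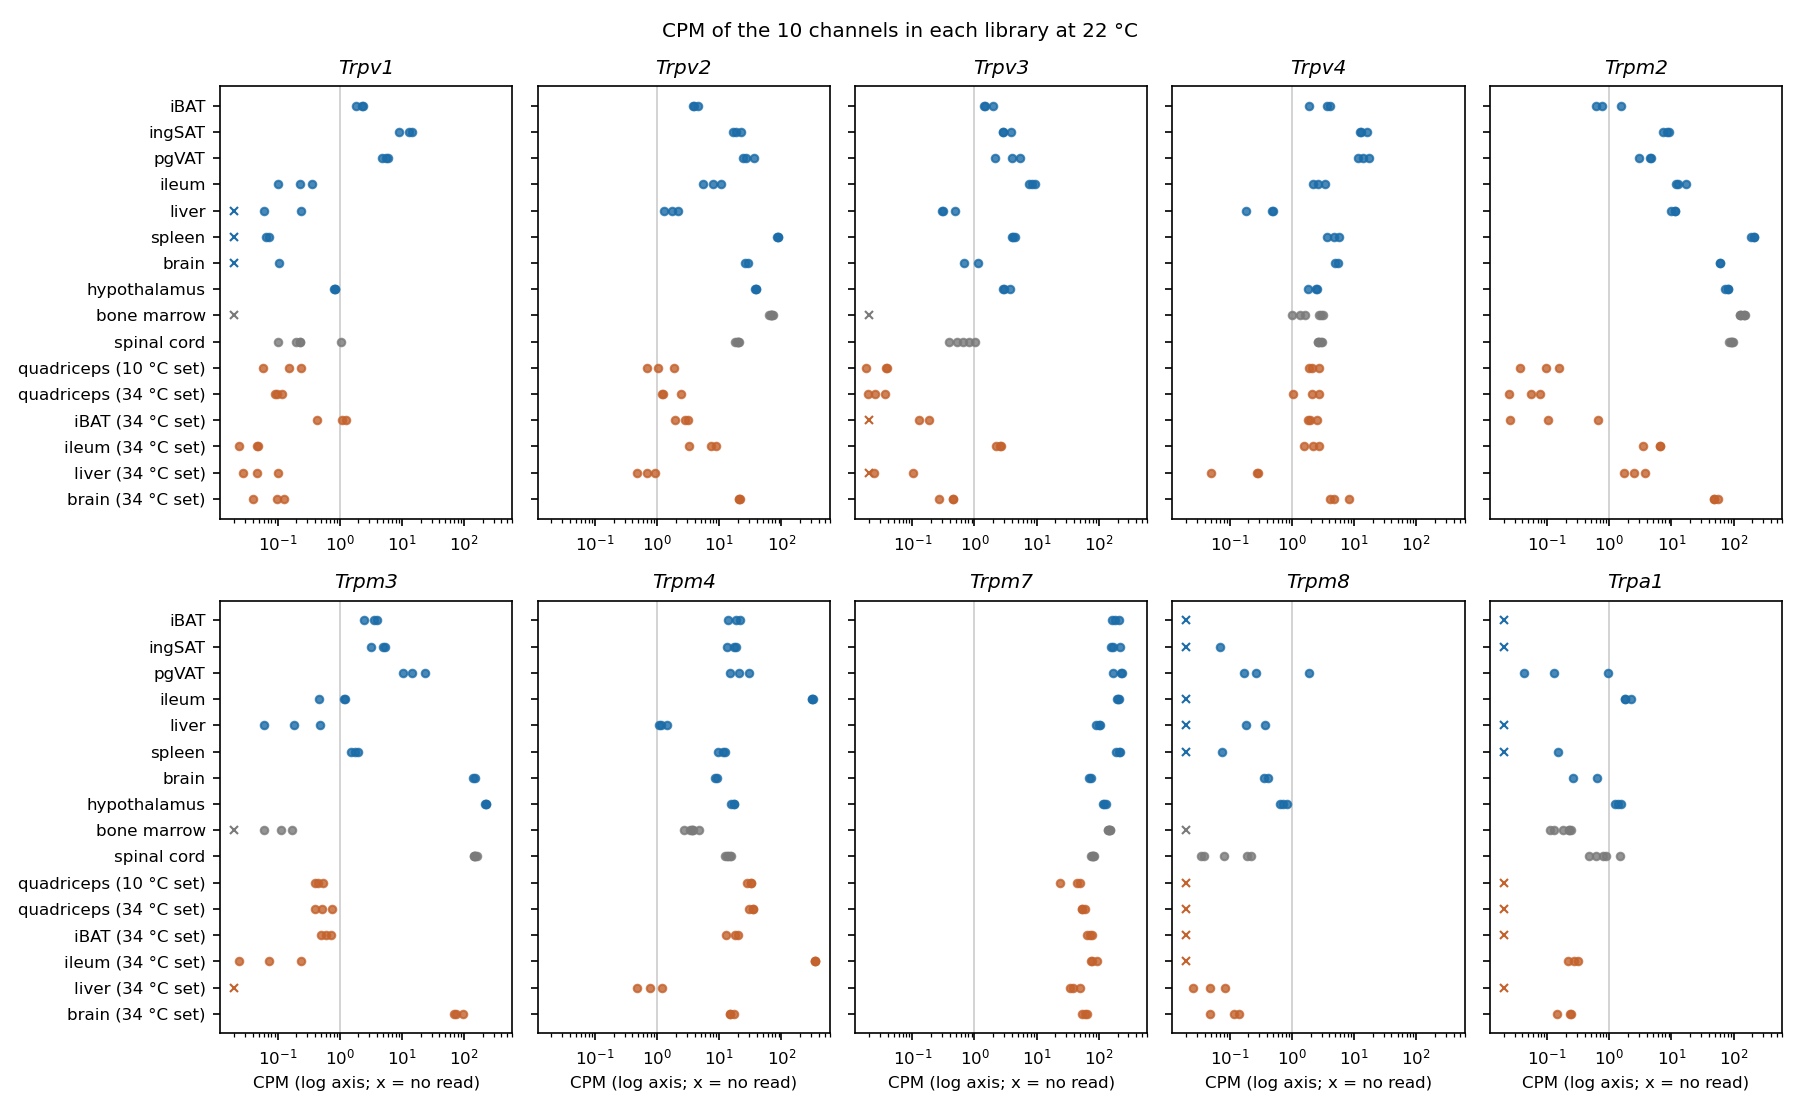
CPM (log axis) of each of the 10 channels in every 22 °C library, with 1 row per tissue; blue points are the table of 8 tissues, grey points bone marrow and spinal cord, orange points the table of quadriceps and the 34 °C experiment, and crosses mark tissues with libraries without a read. Trpm7 lies at or above 23.4 CPM in every library, Trpv1 is highest in ingSAT, and Trpm8 and Trpa1 stay near or below 2.22 CPM.

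Among the other heat and warmth channels, Trpv2 and Trpm2 were highest in spleen. Trpv2 measured 83.6, 87.1 and 87.6 CPM in spleen, and its mean was 38.3 CPM in hypothalamus, 29.3 in pgVAT, 27.8 in brain and 19.4 in ingSAT, of which only pgVAT and brain overlapped. The lower levels were 8.04 CPM in ileum, 4.06 in iBAT and 1.73 in liver. Bone marrow, in its own table, gave 63.3 to 73.5 CPM. Trpm2 measured 189, 210 and 214 CPM in spleen. Its means in the other tissues, none overlapping with its neighbour, were 78.4 CPM in hypothalamus, 59.7 in brain, 13.8 in ileum, 10.9 in liver, 8.33 in ingSAT, 4.10 in pgVAT and 0.967 in iBAT. Bone marrow gave 125 to 151 CPM of Trpm2. Trpv3 was highest in ileum, at 7.54, 8.51 and 9.28 CPM, and spleen, pgVAT, hypothalamus and ingSAT formed an overlapping group with means of 3.21 to 4.23 CPM. Trpv4, the channel that also answers cell swelling, was highest in pgVAT (mean 14.3 CPM) and ingSAT (13.9 CPM), which overlapped. Brain, spleen, iBAT, ileum and hypothalamus followed with overlapping means of 2.24 to 5.29 CPM.

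Trpm3 was highest in nervous tissue, with 214, 227 and 227 CPM in hypothalamus, 138 and 148 CPM in brain, and 143 to 164 CPM in the 5 libraries of spinal cord. Its mean was 16.4 CPM in pgVAT, the tissue with epididymis markers, and 4.50 CPM or less in the other tissues of the large table. Trpm4 was highest in ileum, where it measured 310, 312 and 317 CPM, or 28.9 CPM per kb, the highest value per kilobase among the 10 members in that tissue. Its next levels, 21.9 CPM in pgVAT, 17.9 in iBAT, 16.6 in hypothalamus and 16.3 in ingSAT, overlapped each with its neighbour. Trpm7, the channel with a kinase, was found in every tissue, from 71.6 CPM in brain to 212 CPM in pgVAT within the large table, and pgVAT, spleen, ileum, iBAT and ingSAT overlapped in sequence. Trpa1 was measurable in ileum (1.76, 1.81 and 2.22 CPM) and in hypothalamus (1.23, 1.39 and 1.57 CPM), and it had no read at 22 °C in iBAT, ingSAT and liver.

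Levels could not be carried from one table to another. For the 4 tissues sequenced in both experiments, 22 °C means of the large table were divided by those of the 34 °C experiment. The median ratio was 1.09 to 1.28 over genes of at least 1 CPM in both. The 5th to 95th percentiles of those genes were 0.475 to 3.97 in iBAT, 0.418 to 4.37 in ileum, 0.471 to 3.70 in liver and 0.440 to 2.36 in brain. The ratio of Trpv3 was 15.8 in iBAT, 3.42 in ileum, 8.78 in liver and 2.36 in brain. Trpv3 was under 1 CPM in the 34 °C experiment in iBAT (0.104), liver (0.0418) and brain (0.386), so it was not among those genes there. For Trpm7 the ratio was 2.63 in iBAT, 2.5 in ileum, 2.4 in liver and 1.21 in brain, each within those percentiles. For Trpm4 it was 1.05, 0.908, 1.52 and 0.561. The tables differ in library kit, sequencing site and identifiers. The mice behind them also differ in supplier and in labelled age. The brain libraries of the 34 °C experiment are labelled as brain without hypothalamus, whereas those of the large table are labelled as brain. The part of each of these differences in the ratios was not tested. All tests were therefore made within 1 table.

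The first question of the study was what cold acclimation changes in each tissue. A gene was called where edgeR's quasi-likelihood test gave an unadjusted p of at most 0.05 and the fold change was above 1.5, which are the study's limits. Over the 11 tissues the 10 members made 110 pairs of gene and tissue, of which 73 passed the filter on low values and were tested. Of these, 5 were called: 1 higher at 10 °C (Trpm4 in iBAT) and 4 lower (Trpv1 in iBAT, Trpv4 in ingSAT, Trpv2 in pgVAT and Trpv4 in ileum). The share of all genes called in the same fits ran from 0.271% in spinal cord to 16.4% in ingSAT. Only Trpm4 in iBAT also passed a Benjamini-Hochberg adjusted p of 0.05 over all genes tested.

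In iBAT, 2 of 8 members tested were called, where 13.2% of all genes tested were called. Trpm4, the calcium-activated channel for monovalent cations, rose from 13.2, 18.3 and 19 CPM at 22 °C to 30.7, 30.9 and 31.6 CPM at 10 °C. The groups did not overlap, and the 10 °C libraries lay within 1 CPM of each other. The change was a log2 fold change of 0.89 ± 0.15 (SE), a 1.85-fold rise (unadjusted p = 0.00022, adjusted p = 0.0079, edgeR). It was called under all 15 alternatives tried, with log2 fold changes of 0.72 to 0.98. Trpv1 fell from 1.75, 2.15 and 2.18 CPM to 0.957, 1.24 and 1.53 CPM, again without overlap, by 0.69 ± 0.28 on the log2 scale (unadjusted p = 0.033, adjusted p = 0.14, edgeR). These were 28 to 42 counts per library at 22 °C and 14 to 25 at 10 °C. The Trpv1 call was lost in 6 of 15 alternatives, among them DESeq2 (unadjusted p = 0.068) and the fits without 22 °C replicate 1 (unadjusted p = 0.068), 22 °C replicate 2 (unadjusted p = 0.091), 10 °C replicate 1 (unadjusted p = 0.081) or 10 °C replicate 2 (unadjusted p = 0.12).

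Trpv2, Trpv3, Trpv4, Trpm2, Trpm3 and Trpm7 had log2 fold changes between -0.34 and 0.17 in iBAT, and none was called. Trpm8 and Trpa1 were at the floor there. Skeletal muscle markers moved with these groups: the 8 genes summed to 6885, 7259 and 9745 CPM at 22 °C and to 2723, 5060 and 5667 CPM at 10 °C, and 6 of 8 were called lower. Epididymis markers were at 0 to 0.077 CPM at 22 °C and at 3.28, 3.37 and 39.4 CPM at 10 °C, and 4 of the 4 tested were called higher. The 7 brown adipocyte markers summed to 8297 to 13528 CPM at 22 °C and 14461 to 18290 CPM at 10 °C, with 3 called higher and 2 lower. The 12 sensory neuron markers summed to 3.84 to 5.64 CPM and 2.74 to 3.42 CPM, with 1 of 2 tested called lower and Prdm12 and Scn10a at 0. Smooth muscle markers summed to 390 to 437 CPM at 22 °C and 193 to 304 CPM at 10 °C. Of the 5 tested, 2 were called lower. Other lists with calls were red cell precursor markers (2 higher), liver markers (3 lower) and choroid plexus markers (1 higher, 3 lower). Ileum markers had 1 call in each direction, and pancreas acinar and neuron markers each had 1 higher. The part of any of these in the changes of Trpm4 and Trpv1 was not tested.

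In ingSAT, 1 of 8 members tested was called, against 16.4% of all genes. Trpv4 fell from 11.6, 13.4 and 17.1 CPM at 22 °C to 6.54, 7.52 and 9.18 CPM at 10 °C, with no overlap, by 0.86 ± 0.22 on the log2 scale (unadjusted p = 0.0058, adjusted p = 0.060, edgeR). The fall stayed past both limits whichever library was left out. Trpv1, at its highest in this depot, measured 8.52, 13.3 and 14.8 CPM at 22 °C and 7.15, 8.26 and 11.4 CPM at 10 °C, a log2 fold change of -0.45 ± 0.28 that was not called (adjusted p = 0.33, edgeR), with overlapping groups. Trpv2 was not called either (-0.45 ± 0.30), although without 10 °C replicate 2 its log2 fold change was -0.77 (unadjusted p = 0.014). Trpv3 (0.53 ± 0.28), Trpm2 (0.03), Trpm3 (-0.13), Trpm4 (0.09) and Trpm7 (0.20) were not called, and Trpm8 and Trpa1 were at the floor. Macrophage and microglia markers were lower at 10 °C, where 12 genes summed to 755, 850 and 1126 CPM against 1040, 1402 and 2036 CPM at 22 °C and 7 of 12 were called lower. Brown adipocyte markers were higher, with 7 of 7 called and sums of 155 to 213 CPM at 22 °C and 2377 to 3049 CPM at 10 °C. The 7 endothelial markers summed to 379 to 1011 CPM at 22 °C and 459 to 545 CPM at 10 °C, and 2 were called lower. Smooth muscle markers summed to 127 to 252 CPM at 22 °C and 91.5 to 138 CPM at 10 °C, and 1 was called lower. Further calls were in oligodendrocyte markers (2 lower) and in liver and choroid plexus markers (1 lower each). Ileum and red cell precursor markers each had 1 higher, and adipocyte markers had 1 in each direction. The part of any of these in the change of Trpv4 was not tested.

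In pgVAT, 1 of 8 members tested was called, against 8.17% of all genes, and the 10 °C libraries differed in their epididymis markers as given above. Trpv2 measured 25.8, 26.9 and 31.3 CPM at 22 °C and 7.01, 20.8 and 11.6 CPM in replicates 1, 2 and 3 at 10 °C. It fell by 1.09 ± 0.40 on the log2 scale (unadjusted p = 0.029, adjusted p = 0.59, edgeR). The replicate nearest to the 22 °C values was replicate 2, the only 10 °C library without high epididymis markers. With that 1 library alone at 10 °C, a value with no replicate, the log2 fold change was -0.36. The call was lost without any of the 22 °C libraries (unadjusted p = 0.060 to 0.10) and without 10 °C replicate 1 (unadjusted p = 0.052) or 3 (unadjusted p = 0.082). In the same order, macrophage and microglia markers summed to 400, 1020 and 670 CPM at 10 °C, against 548 to 917 CPM at 22 °C. Endothelial markers summed to 208, 1011 and 578 CPM, against a median of 506 CPM at 22 °C. B cell markers summed to 9.77, 11.9 and 3.89 CPM, against 17.3 to 28.6 CPM, with 3 called lower. The part of any of these lists, or of the epididymis markers, in the values of Trpv2 was not tested.

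Trpm3 was the member with the widest spread in pgVAT. It measured 10.5, 15.4 and 20.7 CPM at 22 °C and 162, 3.77 and 100 CPM in replicates 1, 2 and 3 at 10 °C, which is 3165, 54 and 1419 counts. The high values sat in the 2 libraries with high epididymis markers and the low value in the library with 3.42 CPM of them. The log2 fold change of 2.52 ± 1.07 was not called (unadjusted p = 0.051, adjusted p = 0.59, edgeR). Without 10 °C replicate 2 it was 3.05 (unadjusted p = 2.3e-05), and replicate 2 taken alone, 1 library with no replicate, lay below the 22 °C libraries (-1.96). Trpm3 was also called over all libraries by DESeq2 (2.43, unadjusted p = 0.0073), by the exact test (unadjusted p = 0.018) and without the filter on low values (unadjusted p = 0.038). Trpm4 followed the same libraries, at 41.6, 14 and 50.1 CPM at 10 °C against 15.7 to 26.2 CPM at 22 °C, and was called without 10 °C replicate 2 (log2 fold change 1.1, unadjusted p = 0.0054). Trpv1 ran the other way, at 4.76, 9 and 2.83 CPM against 5 to 5.57 CPM. Trpv3, Trpv4, Trpm2 and Trpm7 had log2 fold changes of -0.02 to 0.17 over all libraries, and Trpm8 and Trpa1 were not tested. In the same order the 7 adipocyte markers summed to 13678, 29995 and 9629 CPM at 10 °C and lay between 19570 and 33028 CPM at 22 °C. Epithelium markers summed to 346, 44.8 and 1053 CPM against 77.4 to 202 CPM, with 0 called. Neuron markers summed to 25.5, 8.24 and 26.7 CPM against 9.02 to 25.1 CPM, with 0 called. Neutrophil markers had 2 called lower, adipocyte, skeletal muscle and ileum markers 1 lower each, and epididymis and mesothelium markers 1 higher each. The part of any of these lists in the values of Trpm3, Trpm4 and Trpv1 was not tested.

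**Figure D2:**
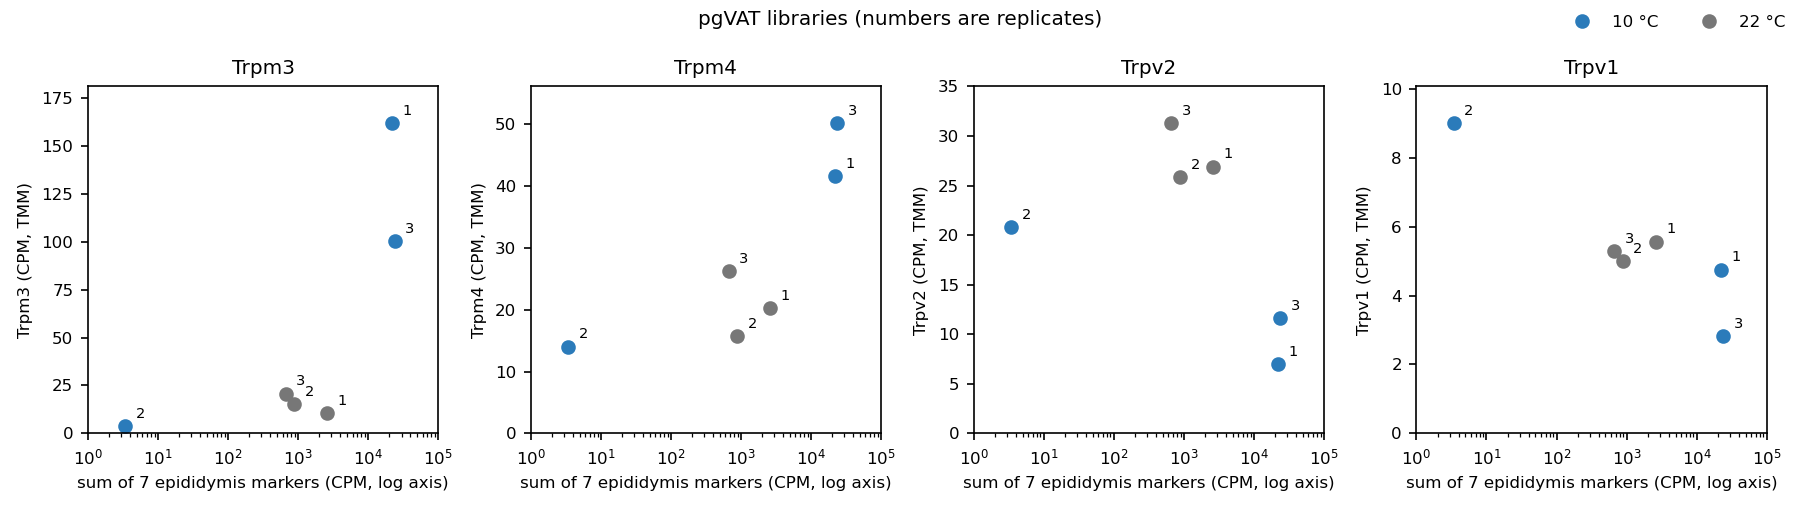
CPM of Trpm3, Trpm4, Trpv2 and Trpv1 in the 3 pgVAT libraries at 10 °C (blue) and the 3 at 22 °C (grey), against the sum of 7 epididymis markers in the same library (CPM, log axis); numbers are replicates. At 10 °C replicate 2 holds 3.42 CPM of the markers and replicates 1 and 3 hold 21998 and 23860 CPM.

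In ileum, 1 of 7 members tested was called, against 2.73% of all genes. Trpv4 measured 2.16, 2.62 and 3.25 CPM at 22 °C and 1, 1.59 and 1.69 CPM at 10 °C, without overlap, and fell by 0.89 ± 0.27 on the log2 scale (unadjusted p = 0.011, adjusted p = 0.18, edgeR). The counts behind these values were 53 to 57 per library at 22 °C and 16 to 35 at 10 °C. The call held without any single library. Trpv3, highest in ileum among the tissues, stood at 7.41, 8.25 and 9.15 CPM at 22 °C and at 9.53, 11.0 and 12.6 CPM at 10 °C. The groups did not overlap. This log2 fold change of 0.42 ± 0.15 had an unadjusted p of 0.025 and did not reach the limit on the fold (adjusted p = 0.24, edgeR). Trpm2 measured 11.6, 12.4 and 16.8 CPM at 22 °C and 7.58, 11.1 and 11.3 CPM at 10 °C, a log2 fold change of -0.45 ± 0.21 that was not called (adjusted p = 0.32, edgeR). Trpm4, the most abundant of these channels in ileum per kilobase of exon, had a log2 fold change of -0.01 ± 0.06. Trpv2 and Trpa1 each had -0.21 and Trpm7 -0.06, and Trpv1, Trpm3 and Trpm8 were not tested. The sums of 6 epithelium markers (7779 to 8581 CPM at 22 °C, 8154 to 9647 CPM at 10 °C), 6 smooth muscle markers (1128 to 2092 and 896 to 1569 CPM) and 12 macrophage and microglia markers (238 to 269 and 218 to 229 CPM) included 0 called genes in edgeR. Calls were found among adipocyte markers (106 to 169 CPM at 22 °C, 158 to 367 CPM at 10 °C, 2 of 7 higher), red cell precursor markers (32.4 to 57.7 and 81.4 to 112 CPM, 2 higher), skeletal muscle markers (28.1 to 34.1 and 36.7 to 106 CPM, 1 higher), T cell markers (54.8 to 96.9 and 57.7 to 77.5 CPM, 2 lower) and neuron markers (10.7 to 15.1 and 8.07 to 10.3 CPM, 1 lower). Liver markers (2482 to 2679 CPM at 22 °C, 4096 to 5163 CPM at 10 °C) and ileum markers (13401 to 15357 and 14720 to 18440 CPM) each had 1 called higher. Oligodendrocyte markers (99.8 to 106 and 90.1 to 101 CPM) had 1 called lower. The part of any of these in the change of Trpv4 was not tested.

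No member was called at 10 °C in the other 7 tissues by edgeR, where the share of all genes called was 3.20% in liver, 2.71% in spleen, 1.26% in bone marrow, 0.271% in spinal cord, 0.801% in brain, 0.578% in hypothalamus and 3.80% in quadriceps. At an unadjusted p of 0.05 with no limit on the fold, 1 of these pairs passed, namely Trpm2 in bone marrow, and DESeq2 called 0. Its 6 libraries at 22 °C ran from 126 to 153 CPM (median 139) and its 6 libraries at 10 °C from 101 to 135 CPM (median 116). The groups overlapped, and the log2 fold change was -0.25 ± 0.07 (adjusted p = 0.028, edgeR). Neutrophil markers, which include genes of the cells that fill bone marrow, summed to 34879 to 50558 CPM at 22 °C and 31954 to 34419 CPM at 10 °C over 9 genes. With the limit on the fold 0 of them were called, but each had a lower median at 10 °C. Medians at 22 °C and 10 °C were 10934 and 7775 CPM for S100a8, 8081 and 5574 for Ltf, and 2919 and 2117 for Camp, without overlap. The groups overlapped for the other neutrophil markers, such as Mpo (2060 and 1824 CPM). Their part in the level of Trpm2 was not tested. In bone marrow Trpv2 had -0.07, Trpv4 0.09, Trpm4 -0.27 and Trpm7 -0.03 on the log2 scale, and Trpv1, Trpv3, Trpm3, Trpm8 and Trpa1 were not tested. In spleen, where Trpv2 and Trpm2 are highest, their log2 fold changes were -0.0014 and -0.03, with Trpv3 at -0.06, Trpv4 at -0.10, Trpm3 at 0.42, Trpm4 at -0.15 and Trpm7 at 0.05, and Trpv1, Trpm8 and Trpa1 were at the floor. In liver Trpv2 (-0.03), Trpm2 (0.10), Trpm4 (0.20) and Trpm7 (-0.06) were tested, and Trpv1, Trpv3, Trpv4, Trpm3, Trpm8 and Trpa1 were not. In brain Trpv2, Trpv3, Trpv4, Trpm2, Trpm3, Trpm4 and Trpm7 had -0.12 (Trpv4) to 0.31 (Trpv3), and with replicate 2 of the 22 °C libraries included -0.30 (Trpm7) to 0.40 (Trpv3), while Trpv1, Trpm8 and Trpa1 were not tested. In quadriceps Trpv4 (0.02), Trpm4 (-0.07) and Trpm7 (0.03) were not called, and Trpv1, Trpv3, Trpm2, Trpm3, Trpm8 and Trpa1 were not tested. Trpv2 was called there without 22 °C replicate 1 (log2 fold change 0.80, unadjusted p = 0.033, against 0.20 with all libraries), and 6 of 7 adipocyte markers were called higher in quadriceps at 10 °C, with sums of 233 to 343 CPM at 22 °C and 314 to 858 CPM at 10 °C.

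The hypothalamus holds the preoptic centres of temperature control. Trpm2, known in warm-sensing preoptic neurons and in immune cells, measured 71.0, 81.6 and 82.6 CPM at 22 °C in the hypothalamus as a whole. At 10 °C it measured 76.7, 77.8 and 78.5 CPM, with a log2 fold change of -0.02 ± 0.06 and a 95% interval of -0.14 to 0.11. Trpm3 had a log2 fold change of 0.00 ± 0.04 and Trpv2 of -0.01 ± 0.06. The interval of the Trpm2 change excludes the 1.5-fold limit on both sides for the bulk tissue. The share of preoptic neurons in these reads was not tested. Trpv3 (-0.24), Trpv4 (-0.35) and Trpm4 (-0.12) were not called, nor was Trpm7 (-0.0025). The scarcer channels were less certain: Trpv1 had 0.16 ± 0.30 and Trpa1 0.07 ± 0.26. Trpm8 was not tested there, and stood at 0.654 to 0.818 CPM at 22 °C and 0.666 to 0.913 CPM at 10 °C.

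In spinal cord Trpv1 and Trpa1 were highest in 1 library. Replicate 1 at 22 °C held 29 counts of Trpv1 and 41 of Trpa1, whereas 8 other libraries of both temperatures held 1 to 6 and 8 to 23. The same library held 300 counts of Scn10a, a sodium channel of nociceptors, against 0 to 10 in those 8 libraries, 204 counts of Scn11a against 1 to 7, and 225 of Avil against 8 to 23. Trpm8 did not share this pattern, with 6 counts there and 0 to 7 in the same 8 libraries, and 3 of the 12 sensory neuron markers, Calca, Isl1 and Prph, had their most counts in other libraries. Replicate 5 at 10 °C came next for these genes, with 36 counts of Scn10a, 27 of Scn11a and 33 of Avil, and it held 8 counts of Trpv1 and 24 of Trpa1. Trpv1, Trpv3, Trpm8 and Trpa1 did not pass the filter in this tissue and were not tested. Trpv4, Trpm2, Trpm3, Trpm4, Trpm7 and Trpv2 had log2 fold changes of -0.22 to 0.09, and of -0.24 (Trpv4) to 0.095 (Trpv2) without 22 °C replicate 1.

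**Figure D3:**
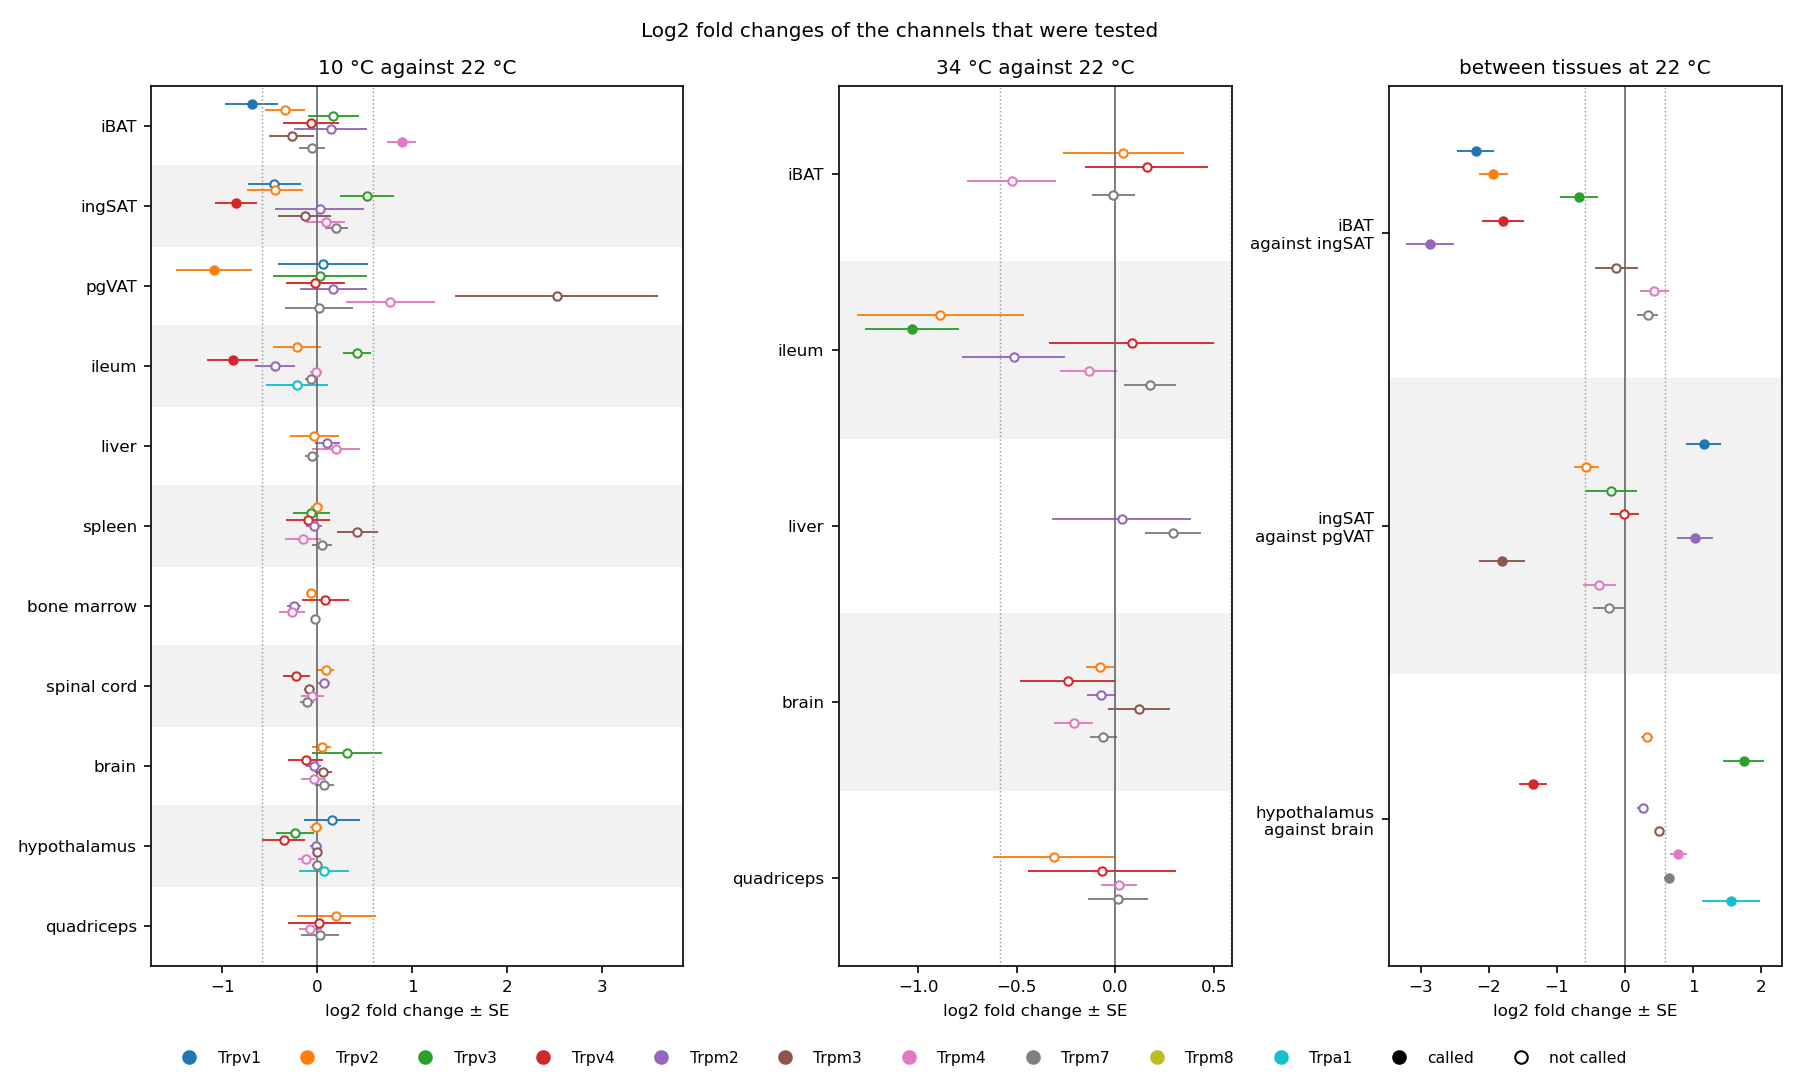
Log2 fold changes ± SE of every member that was tested, for 10 °C against 22 °C in 11 tissues, 34 °C against 22 °C in 5 tissues, and between tissues at 22 °C; filled points passed both limits and dotted lines mark a fold of 1.5. At 10 °C the filled points are Trpm4 and Trpv1 in iBAT, Trpv4 in ingSAT and ileum, and Trpv2 in pgVAT.

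The second question was what warm acclimation changes. Over the 5 tissues the members made 50 pairs of gene and tissue. By tissue, 0.193% (brain) to 19.4% (iBAT) of all genes were called. Of the pairs, 22 were tested and 1 was called. That pair was Trpv3 in ileum, where 1 of 6 members tested was called against 2.91% of all genes. Trpv3 measured 2.17, 2.53 and 2.66 CPM at 22 °C (91 to 111 counts) and 1.04, 1.09 and 1.46 CPM at 34 °C (46 to 72 counts). The groups did not overlap, and Trpv3 fell by 1.03 ± 0.24 on the log2 scale (unadjusted p = 0.0037, adjusted p = 0.60, edgeR). The call held without any single library and was lost only with the adjusted p. At 10 °C the same gene had stood above its 22 °C libraries in the other experiment. The 2 changes came from different tables, so their difference was not tested. The 6 epithelium markers summed to 12831 to 13501 CPM at 22 °C and 10407 to 13139 CPM at 34 °C in the ileum. Trpv4 (0.08), Trpm4 (-0.13) and Trpm7 (0.17) were not called, and Trpv1, Trpm3, Trpm8 and Trpa1 were not tested.

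B cell markers of the ileum also differed between libraries of the 34 °C experiment, at 75.7, 309 and 456 CPM at 22 °C and 6.03, 8.25 and 199 CPM at 34 °C. Trpv2 and Trpm2, the channels highest in spleen, measured 3.26, 7.21 and 8.69 CPM and 3.54, 6.50 and 6.59 CPM at 22 °C, and 2.64, 2.66 and 5.06 CPM and 3.68, 3.69 and 4.27 CPM at 34 °C. Neither was called, but without 22 °C replicate 2, the 22 °C library with the fewest B cell markers, their log2 fold changes were -1.18 (unadjusted p = 0.013) and -0.74 (unadjusted p = 0.0045). Trpv2 was also called without 34 °C replicate 1 (-1.25, unadjusted p = 0.026) and by DESeq2 (-0.88, unadjusted p = 0.039). The part of B cells in these values was not tested.

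In iBAT edgeR and DESeq2 called 0 of 4 members tested at 34 °C, against 19.4% of all genes, and no unadjusted p of edgeR was under 0.05. Trpm4 measured 14.2, 19.7 and 22.7 CPM at 22 °C and 10.2, 12.6 and 16.6 CPM at 34 °C. The groups overlapped, and the log2 fold change of -0.53 ± 0.23 did not pass (unadjusted p = 0.051, adjusted p = 0.12, edgeR). Without 22 °C replicate 1 it was -0.69 (unadjusted p = 0.015), and without 34 °C replicate 1 it was -0.74 (unadjusted p = 0.018). Skeletal muscle markers in these libraries ran from 3.96 to 6181 CPM at 22 °C and from 1364 to 4936 CPM at 34 °C. Trpv1 did not pass the filter in this table, and stood at 0.471, 1.21 and 1.37 CPM at 22 °C and 0.613, 0.725 and 0.957 CPM at 34 °C. Trpv2 (0.04), Trpv4 (0.16) and Trpm7 (-0.01) were not called, Trpv3, Trpm2 and Trpm3 were not tested, and Trpm8 and Trpa1 were at the floor.

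No member was called at 34 °C in liver (2 tested, against 3.39% of all genes), brain (6 tested, against 0.193%) or quadriceps (4 tested, against 1.23%) by edgeR, nor by DESeq2, and no unadjusted p of edgeR was under 0.05. In brain Trpm4 had a log2 fold change of -0.21 ± 0.10 (adjusted p = 1.0, edgeR) and its groups overlapped. In liver Trpm7 had 0.29 ± 0.14, with 32.7, 38.3 and 49.0 CPM at 22 °C and 46.0, 48.5 and 52.3 CPM at 34 °C, and Trpm2 had 0.03. Trpv2, Trpv4, Trpm2, Trpm3 and Trpm7 had -0.24 to 0.12 in brain, and Trpv2, Trpv4, Trpm4 and Trpm7 had -0.31 to 0.02 in quadriceps. Trpv1, Trpv3, Trpm8 and Trpa1 were not tested in any of these tissues, nor were Trpv2, Trpv4, Trpm3 and Trpm4 in liver or Trpm2 and Trpm3 in quadriceps.

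**Figure D4:**
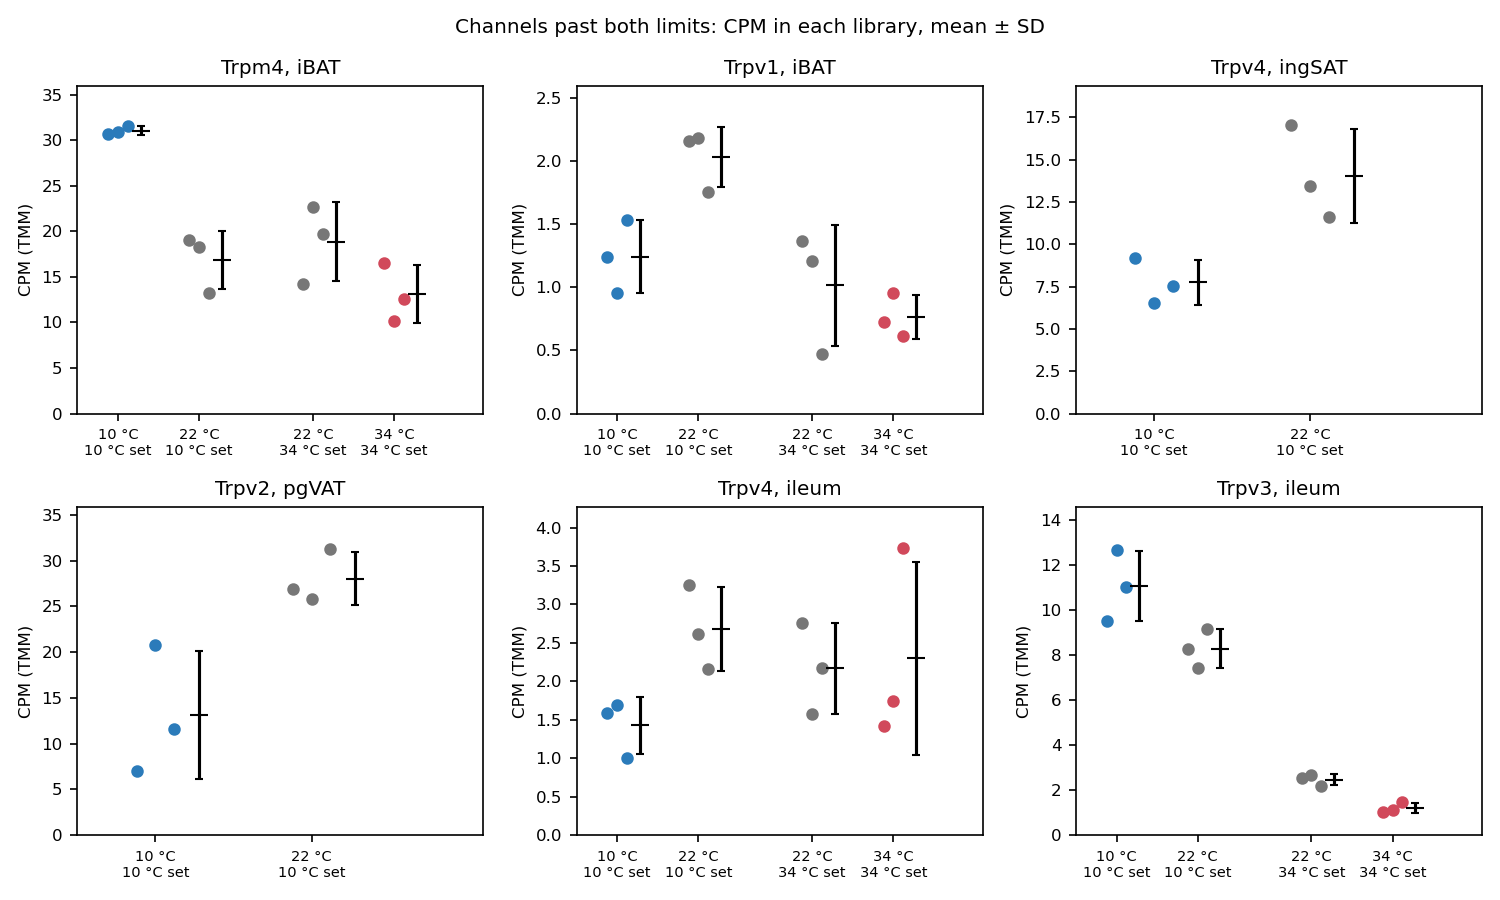
CPM scaled with TMM in each library, with the mean and SD (black), for the 6 pairs of channel and tissue that passed both limits at 10 °C or 34 °C; blue is 10 °C, grey 22 °C and red 34 °C, and the 2 experiments have their own 22 °C libraries. Trpm4 in iBAT stands at 30.7 to 31.6 CPM at 10 °C and at 10.2 to 16.6 CPM at 34 °C; levels are not comparable between experiments.

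Neighbouring tissues were also compared at 22 °C, to show how the channels differ without any change of temperature. Of 24 tests 13 were called, 6 higher and 7 lower, where 19.5% to 46.6% of all genes were called by comparison. In iBAT against ingSAT 5 of 8 members tested were called, all lower in brown fat, where 46.6% of all genes were called. Trpm2 measured 0.697, 0.851 and 1.63 CPM in iBAT and 6.78, 7.77 and 7.87 CPM in ingSAT, a log2 fold change of -2.87 ± 0.35 (adjusted p = 0.00021, edgeR). Trpv1 was lower in iBAT with a log2 fold change of -2.20 ± 0.27, Trpv2 with -1.93 ± 0.21 and Trpv4 with -1.79 ± 0.31, each without overlap and under every alternative tried. Trpv3 was lower, with -0.68 ± 0.29 (adjusted p = 0.077, edgeR), and this call was lost in 8 of 15 alternatives, among them the replicate block (unadjusted p = 0.075). It was also lost without any 1 of the ingSAT libraries, and without iBAT replicate 2 or 3. Trpm3, Trpm4 and Trpm7 were not called, and their log2 fold changes were -0.13, 0.43 and 0.33. Trpm8 and Trpa1 were at the floor. Macrophage and microglia markers summed to 245 to 326 CPM in iBAT and 947 to 1807 CPM in ingSAT, with 11 of 12 called lower in iBAT, and the 6 B cell markers to 3.39 to 6.15 and 41.9 to 249 CPM. Skeletal muscle markers were called higher in iBAT for 8 of 8 genes. Their part in these differences was not tested.

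In ingSAT against pgVAT 3 of 8 members tested were called, against 19.5% of all genes. Trpv1 was higher in ingSAT by a log2 fold change of 1.15 ± 0.26 (adjusted p = 0.034, edgeR) and Trpm2 by 1.03 ± 0.27 (adjusted p = 0.052, edgeR), both without overlap. Trpm3 was lower, at 3.16, 5.02 and 5.40 CPM against 10.8, 15.9 and 21.4 CPM, with a log2 fold change of -1.81 ± 0.33 (adjusted p = 0.016, edgeR). The 7 epididymis markers were at 0 CPM in the ingSAT libraries and at 689 to 2706 CPM in pgVAT, and their part in the level of Trpm3 was not tested. Trpv4 had a log2 fold change of -0.01 ± 0.21 between the 2 white depots. Trpv2 had -0.57 ± 0.19 (adjusted p = 0.12, edgeR), just under the limit on the fold, and was called without pgVAT replicate 2 (-0.62), without ingSAT replicate 1 (-0.71) and with scaling by library size alone (-0.59). Trpv3 (-0.20), Trpm4 (-0.38) and Trpm7 (-0.23) were not called, and Trpm8 and Trpa1 were not tested.

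In hypothalamus against brain 5 of 8 members tested were called, against 40.6% of all genes. Trpv3 was higher in hypothalamus by 1.74 ± 0.30, Trpa1 by 1.55 ± 0.43, Trpm4 by 0.78 ± 0.12 and Trpm7 by 0.65 ± 0.08 on the log2 scale, and Trpv4 was lower, with a log2 fold change of -1.35 ± 0.21. All had adjusted p values under 0.05 in edgeR and groups that did not overlap. Trpa1 rested on 22 to 26 counts in hypothalamus and on 9 and 5 counts in brain, and its call was lost without brain replicate 3 (log2 fold change 0.97, unadjusted p = 0.068), a fit that leaves 1 brain library and takes its spread from the hypothalamus libraries. Brain entered with 2 libraries, so the other brain values rest on few samples too. Trpm7 was no longer called with all 3 brain libraries, the one with liver markers included (0.25, unadjusted p = 0.40). Trpm3 had 0.50 ± 0.07 (adjusted p = 1.1e-05, edgeR), which is under the limit on the fold, and was called with all 3 brain libraries (0.70) or with scaling by library size alone (0.64). Trpv2 (0.33) and Trpm2 (0.26) also had unadjusted p values under 0.05 and were under that limit, and Trpv1 and Trpm8 were not tested. Choroid plexus markers, 11 genes, summed to 1557 and 2356 CPM in brain and 419 to 501 CPM in hypothalamus, and 9 were called lower there. Their part in the level of Trpv4, a channel known in the choroid plexus, was not tested.

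Beside the 10 members, 18 other TRP channels were followed. At 10 °C 103 tests of them gave 2 genes higher and 1 lower, namely Trpc6 in iBAT (log2 fold change 0.71), Trpc1 in ileum (0.71) and the lysosomal channel Mcoln2 in pgVAT (-1.71). At 34 °C, in iBAT, the polycystin Pkd2l2 rose by a log2 fold change of 1.54 ± 0.14 (adjusted p = 0.0010, edgeR) and Trpc6 by 0.98. Pkd2l2 shares 631 exon bases, 10.9% of its own, with Fam13b on the opposite strand, so its reads are uncertain where strand was not used in counting. Of 12 other temperature-sensitive or partner channels, 97 tests at 10 °C gave 5 calls higher and 2 lower, and 40 tests at 34 °C gave 2 higher and 3 lower. Most of these calls were in the fat depots, where 8.17% to 16.4% of all genes were called at 10 °C, and 19.4% at 34 °C in iBAT. In iBAT the sulfonylurea receptor Abcc8 rose at 10 °C by a log2 fold change of 2.90 ± 0.31 (adjusted p = 0.00098, edgeR) and also at 34 °C by 1.06 ± 0.39 (adjusted p = 0.079). Kcnk2, a potassium channel opened by heat and stretch, rose by 0.80 ± 0.32 at 10 °C (adjusted p = 0.14) and fell by 1.09 ± 0.23 at 34 °C (adjusted p = 0.013), while Orai3, a calcium channel of store-operated entry, fell by 1.0 ± 0.10 at 34 °C (adjusted p = 0.0013, edgeR). In pgVAT at 10 °C Kcnk2 fell by 0.99 and Ano1, the calcium-activated chloride channel, rose by 1.16. The remaining calls in cold were Abcc9 in ingSAT (-0.80) and in bone marrow (0.66) and Kcnk10 in spleen (0.76), and those in warmth were Kcnk10 in ileum (1.21) and Tmem100 in quadriceps (-0.76).

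Between neighbouring tissues at 22 °C, 32 tests of the other TRP channels gave 8 calls higher and 7 lower. In iBAT against ingSAT the calls included Mcoln2 (log2 fold change -3.43) and Pkd2l2 (0.66). In ingSAT against pgVAT they were Mcoln3 (-2.93), Trpv6 (-4.40), Mcoln2 (1.22) and Trpm6 (-1.57). In hypothalamus against brain they included Trpc6 (-1.95), Trpc5 (1.25) and Pkd2 (0.74). The other temperature-sensitive or partner channels gave 8 calls in each direction over 30 tests. Of all genes tested, 46.6% were called in iBAT against ingSAT, 19.5% in ingSAT against pgVAT and 40.6% in hypothalamus against brain.

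For each member of at least 1 CPM in some tissue, the 3 genes whose log2 CPM ran most nearly parallel over the 24 libraries of 22 °C in the large table were sought among 17202 genes. These values describe how levels ran across tissues, and the libraries of a tissue are not independent points. The nearest genes were Pxdn (r = 0.97), Tshr (0.96) and A530016L24Rik (0.96) for Trpv1, Stk11ip, Patz1 and Tmem229b (each 0.96) for Trpv2, Jarid2, Efcab14 and Nsd1 (0.95 to 0.96) for Trpv3, and Cavin3, Aebp1 and Slit3 (0.95 to 0.96) for Trpv4. For Trpm2 they were Smap2 (0.98), Xrcc5 and Inpp5b, for Trpm3 Slc22a17 (0.99), Dnal1 and Podxl2, for Trpm4 Casz1 (0.99), Sdcbp2 and Galnt5, for Trpm7 Pqlc3 (0.95), Ccnl1 and Zmym5, and for Trpa1 Scgn (0.94), Evpl and Upk3a. The 24 libraries include the brain library with liver markers. Without it, over 23 libraries, 23 of these 27 genes were still among the nearest 3, and the lowest r was 0.94.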

How the data were processed

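The authors sequenced messenger RNA of mouse tissues, aligned reads to mm10 with STAR and counted reads per gene with HTSeq; the submitters' processing notes name STAR 2.5.3a, HTSeq 0.6p1 and Picard 1.141. The deposited values are raw counts in 4 tables, used here without realignment. Of 21647 identifiers of the large table, 21583 were given a symbol. Within each comparison TMM factors set the library sizes behind CPM, and levels across tissues at 22 °C are CPM of the library total. A gene entered the test at an average log2 CPM over 0. The test was that of edgeR 4.0.16 (quasi-likelihood F-test, two-sided, R 4.3.3), fitted on the libraries of the comparison alone, and adjusted p-values are Benjamini-Hochberg over all genes tested. Standard errors come from the F statistic and 95% intervals are normal intervals from them. DESeq2 1.42.0, edgeR's exact test, other scalings, filters and limits, the replicate block and leaving out each library were the alternatives, and pgVAT replicate 2 alone at 10 °C, and likeness without brain replicate 2, were added after the data were seen. The members and lists were chosen with earlier results of these data known. All 10 members are named in every comparison; of the other channels, at most 4 called genes with the smallest p are named with values where a comparison gave more, and some results for these are not reported here. Temperatures were taken from sample titles, since the treatment label names 34 °C for every sample. Quadriceps 22 °C libraries were assigned by column prefix, and brain replicate 2 was left out because the study's means omit it. Whether same-numbered libraries deviate together was checked in 11 comparisons, which did not include brain. In 0 of them was every r above 0.1. Single pairs ran from -0.69 to 0.47, so this rule cannot exclude a shared origin. No 2 replicates agreed within sampling noise (134 pairs, chi-square per gene at least 2.24). Whether libraries of a group came from separate cages is not given, so p-values measure the spread between libraries. The main test was run on counts simulated for the layouts of iBAT and spinal cord at 10 °C and brain at 34 °C. In each, 200 genes were changed, picked at a level above that of the filter. The simulated counts followed the spread that edgeR itself fits. These runs therefore do not cover the scarcest members or unevenly mixed libraries such as those of pgVAT.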

Additional observations from a re-analysis of the deposited data

Results flagged for a closer look

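In the ileum, Trpv3 moved in opposite directions in the 2 experiments. The 10 °C libraries were all higher than those at 22 °C (log2 fold change 0.416), and the 34 °C libraries were all lower than their own 22 °C libraries (-1.03). The difference between the 2 changes was not tested, since the experiments are in separate tables, and only the second passed both limits.

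A library far from the rest of its group was looked for among 22 pairs of member and group with 5 or 6 libraries, and chance alone would single out about 1 in 20. It was found in 2 pairs, both in spinal cord at 10 °C. Trpv4 measured 3.18 CPM in replicate 5 against 2.08 to 2.32 CPM in the others, and Trpm3 measured 129 CPM in replicate 1 against 143 to 147 CPM in the others.

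The 22 °C brain library of replicate 2, which the main comparisons leave out, held 50014 CPM of liver markers, against 788 and 1176 CPM in the other 22 °C brain libraries.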

How the results depend on the processing

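The number of members called was 5 of 73 tests at 10 °C, 1 of 22 at 34 °C and 13 of 24 between tissues at 22 °C. With an adjusted p it was 1, 0 and 11 (edgeR), and with DESeq2 5, 2 and 12; the gain at 34 °C was Trpv2 in ileum (unadjusted p = 0.039). Leaving out 1 library gave 4 to 7, 1 to 3 and 12 to 14. The highest count at 34 °C came without 22 °C ileum replicate 2, when Trpv2 and Trpm2 were called as well. With pgVAT replicate 2 alone at 10 °C the count stayed at 5, with Trpm3 at -1.96 in place of Trpv2. That group is then 1 library, assumed to vary like the 22 °C libraries, so the value describes that library and not the condition. The other alternatives stayed within 1.5 times the main counts. The replicate block gave 5 calls at 10 °C and 12 at 22 °C, and it took the call from Trpv3 in iBAT against ingSAT. The labels give same-numbered libraries only a shared number, and correlations of their deviations ran from -0.69 to 0.47. Scaling by library size alone moved the median of all genes by over 0.1 in iBAT at 10 °C (to -0.18), quadriceps at 10 °C (0.25), iBAT at 34 °C (0.30), iBAT against ingSAT (-0.31) and hypothalamus against brain (0.13), with no change of sign in a called member. Depth limits Trpv1, Trpm8 and Trpa1, which had over 3 counts in 62, 25 and 48 of 106 libraries.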
